A study of Mus musculus with 4 samples.

Results

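The expression of 9 genes of the cadherin superfamily, *Cdh1*, *Cdh2*, *Cdh3*, *Cdh5*, *Cdh6*, *Cdh11*, *Pcdh8*, *Pcdh18* and *Pcdh19*, was examined in single-cell RNA sequencing (scRNA-seq) of the caudal part of mouse embryos at embryonic day 8.5 (E8.5). The genes were chosen with earlier results of these data known and found by their symbols, and each had 1 row among the 31055 features of the count tables. The groups were wild-type (WT) embryos and *Grhl3*-null embryos, which lack the transcription factor gene *Grhl3* in every cell from conception and came from intercrosses of *Grhl3* heterozygotes, both on a C57BL/6 background. Cells of 5 WT embryos formed 1 pool and cells of 3 *Grhl3*-null embryos formed another, and each pool gave 2 libraries. A p-value between genotypes therefore measures the spread between reactions of 1 pool and not between embryos.

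Classical cadherins are calcium-dependent adhesion proteins that bind the same kind of cadherin on a neighbouring cell and are tied to the actin cytoskeleton through catenins. Epithelia such as the surface ectoderm and the gut use E-cadherin (*Cdh1*) and P-cadherin (*Cdh3*), whereas the neural plate, as it folds, replaces E-cadherin with N-cadherin (*Cdh2*), and mesoderm also uses N-cadherin. Protocadherins adhere more weakly and act in cell sorting and signalling, and *Pcdh8*, also called PAPC, is known for its role where the next somite boundary forms.

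Sequences upstream of 3 of the genes are shown, for the 250 bases before the annotated start in RefSeq (build GRCm38.p6). The table used holds 4 of the 9 genes, and *Pcdh8*, *Pcdh19* and *Cdh6* among them are printed. *Pcdh18* is not printed, though each of the 4 passed a genotype comparison given below. The *Pcdh8* window is chr14:79771313-79771562, the *Pcdh19* window chrX:133688994-133689243 and the *Cdh6* window chr15:13173676-13173925. All 3 are written 5′ to 3′ on the minus strand, with capitals marking a matched motif.
Pcdh8: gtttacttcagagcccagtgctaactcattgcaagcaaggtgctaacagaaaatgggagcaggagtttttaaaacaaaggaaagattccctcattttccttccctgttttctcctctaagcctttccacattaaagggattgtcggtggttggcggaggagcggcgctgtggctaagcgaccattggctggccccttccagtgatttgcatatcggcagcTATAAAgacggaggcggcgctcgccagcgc
Pcdh19: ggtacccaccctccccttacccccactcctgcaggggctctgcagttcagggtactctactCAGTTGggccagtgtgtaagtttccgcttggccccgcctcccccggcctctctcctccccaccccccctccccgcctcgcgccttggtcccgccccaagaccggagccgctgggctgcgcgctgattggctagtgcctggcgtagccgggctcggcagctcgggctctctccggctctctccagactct
Cdh6: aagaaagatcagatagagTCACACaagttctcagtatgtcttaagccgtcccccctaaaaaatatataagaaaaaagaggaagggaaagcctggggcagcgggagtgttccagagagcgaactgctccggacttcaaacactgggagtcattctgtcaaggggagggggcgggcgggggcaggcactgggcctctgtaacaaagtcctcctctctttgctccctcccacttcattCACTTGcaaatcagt

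Both strands were searched for 6 short motifs. The letters TATAAA begin 30 bases before the start of *Pcdh8*, and 12.4% of 32851 promoter windows of the same length hold them. An E-box, CANNTG, begins 189 bases before the start of *Pcdh19* and another 15 bases before that of *Cdh6*, and 66.2% of windows hold one. The T-box core TCACAC lies 232 bases before the start of *Cdh6* and in 12.3% of windows. None of these 3 windows, nor that of *Pcdh18*, held the Grainyhead-like motif AACCNGTT (1.79% of windows), the Rbpj motif TGGGAA (21.6%) or the Lef/Tcf motif CTTTGA (13.8%). A match describes the letters only.

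After filtering, 20198 of 24239 barcodes were kept, 5459 and 5116 in the WT libraries and 4842 and 4781 in the *Grhl3*-null libraries, with 209833527 to 226723903 unique molecular identifiers (UMIs) a library. The targeted gene *Grhl3* was counted 878 and 803 times in WT and 12 and 14 times in *Grhl3*-null libraries. Libraries shared 5 to 7 barcodes in each pair. Clustering was done without any gene whose symbol begins with Cdh and a digit or with Pcdh. It gave 15 classes, 14 of them named "-like" from marker lists and 1 known by its leading gene *Lefty2*. The libraries also differed in the sex of their cells: WT libraries held 1259 and 1206 cells called male and 3488 and 3263 called female, and *Grhl3*-null libraries 2278 and 2300 male and 1821 and 1700 female, from UMIs of Y-linked genes and *Xist*. Male and female cells come from different embryos of the pools, so that sex, single embryos and their exact stage cannot be told apart. Results are therefore also given in male and in female cells. Cells called neither sex, 712 and 647 in WT and 743 and 781 in *Grhl3*-null libraries, are in neither part.

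E-cadherin was highest in gut and in surface ectoderm / neural plate border cells, and P-cadherin in the latter. In WT libraries, *Cdh1* stood at 86.0 and 82.1 counts per 1000000 UMIs (CPM) in the gut class and at 79.5 and 82.0 CPM in the class of surface ectoderm / neural plate border cells (SE/NPB). The means of these classes lay 1.04-fold apart, and SE/NPB was 3.07-fold above the notochord class, at 29.1 and 23.6 CPM. The gut and SE/NPB classes held 43.7% and 39.6% of all WT *Cdh1* UMIs. Every other tested class was at 5.98 CPM or less, the highest being the neuromesodermal progenitors (NMPs), which give rise to spinal cord and somites. Primordial germ cells, with 60 cells in all and as few as 5 in a library, had *Cdh1* at 26.5, 50.9, 48.1 and 35.9 CPM in the 4 libraries and were not tested. *Cdh3* was highest in the SE/NPB class, at 73.3 and 76.1 CPM, followed by Mesenchyme 2 (36.5 and 40.0 CPM), gut (38.1 and 32.1 CPM) and notochord (32.5 and 29.7 CPM), whose values overlapped from one to the next. *Cdh1* and *Cdh3* are neighbours on chromosome 8, 46054 bp apart in GRCm38 and on the same strand, yet their orders differed: Mesenchyme 2 held *Cdh3* at a mean of 38.2 CPM and *Cdh1* at 0.437 CPM.

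N-cadherin was spread over many classes. *Cdh2* was highest in the notochord class, at 273 and 230 CPM, the rod of axial mesoderm below the neural tube. Neuroepithelium followed at 164 and 165 CPM, pre-somitic mesoderm at 161 and 158 CPM and NMPs at 144 and 139 CPM. It was lowest in erythroid cells, at a mean of 7.81 CPM, and low in the SE/NPB class, at 26.0 and 23.9 CPM. *Cdh6*, a type II cadherin of the neural tube and neural crest, was more restricted, at 73.1 and 77.4 CPM in neuroepithelium, 28.8 and 28.5 CPM in NMPs and 21.4 and 22.7 CPM in gut. *Cdh11*, the mesenchymal type II cadherin, was highest in Mesenchyme 1, at 57.5 and 56.5 CPM. Pre-somitic, paraxial and somitic mesoderm followed at means of 44.03, 42.8 and 40.8 CPM. Paraxial mesoderm overlapped both others, whereas pre-somitic mesoderm, at 43.4 and 44.7 CPM, lay above somitic mesoderm, at 39.3 and 42.4 CPM.

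VE-cadherin (*Cdh5*), the cadherin of vessel walls, was all but restricted to 1 class. The endothelium and haematoendothelial progenitors had 317 and 342 CPM, 194-fold above the next class, and held 94.9% of WT *Cdh5* UMIs. In the other classes its mean was between 0.231 and 1.70 CPM. A *Cdh5* UMI was found in 80.4% and 80.0% of endothelial WT cells, against 0.198% and 1.71% of neuroepithelial cells, at median depths of 39166 and 35643 UMIs against 35092 and 35456. At an equal depth of 7500 UMIs a cell these shares were 64.1% and 64.5% against 0% (up to 0.593% possible from a count of 0) and 0.855%.

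Protocadherins marked stages of somite formation. *Pcdh8* stood at 81.5 and 83.1 CPM in the paraxial mesoderm class, which holds the youngest somites, 6.38-fold above pre-somitic mesoderm (13.1 and 12.7 CPM), and this class held 78.7% of WT *Pcdh8* UMIs. Somitic mesoderm, named from its list and led by *Cited1*, *Fgf3*, *Tbx6*, *Dkk1* and *Dll1*, had only 3.46 and 2.91 CPM. Of these leading genes *Tbx6* and *Dll1* are also in the pre-somitic list, whereas *Tcf15* and *Meox1* led the paraxial class. The name somitic is thus that of the list and does not make these cells somites. *Pcdh19*, an X-linked protocadherin that can act together with N-cadherin, was broader along the same series, at 268 and 274 CPM in paraxial mesoderm, 172 and 164 CPM in somitic, 162 and 141 CPM in intermediate and 136 and 144.8 CPM in pre-somitic mesoderm. Outside these mesoderm classes the highest mean of *Pcdh19* was 39.3 CPM, in notochord. *Pcdh18* was low and wide, with its highest level in notochord (23.6 and 22.6 CPM) and next in Mesenchyme 1 (19.4 and 18.6 CPM).

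**Figure D1:**
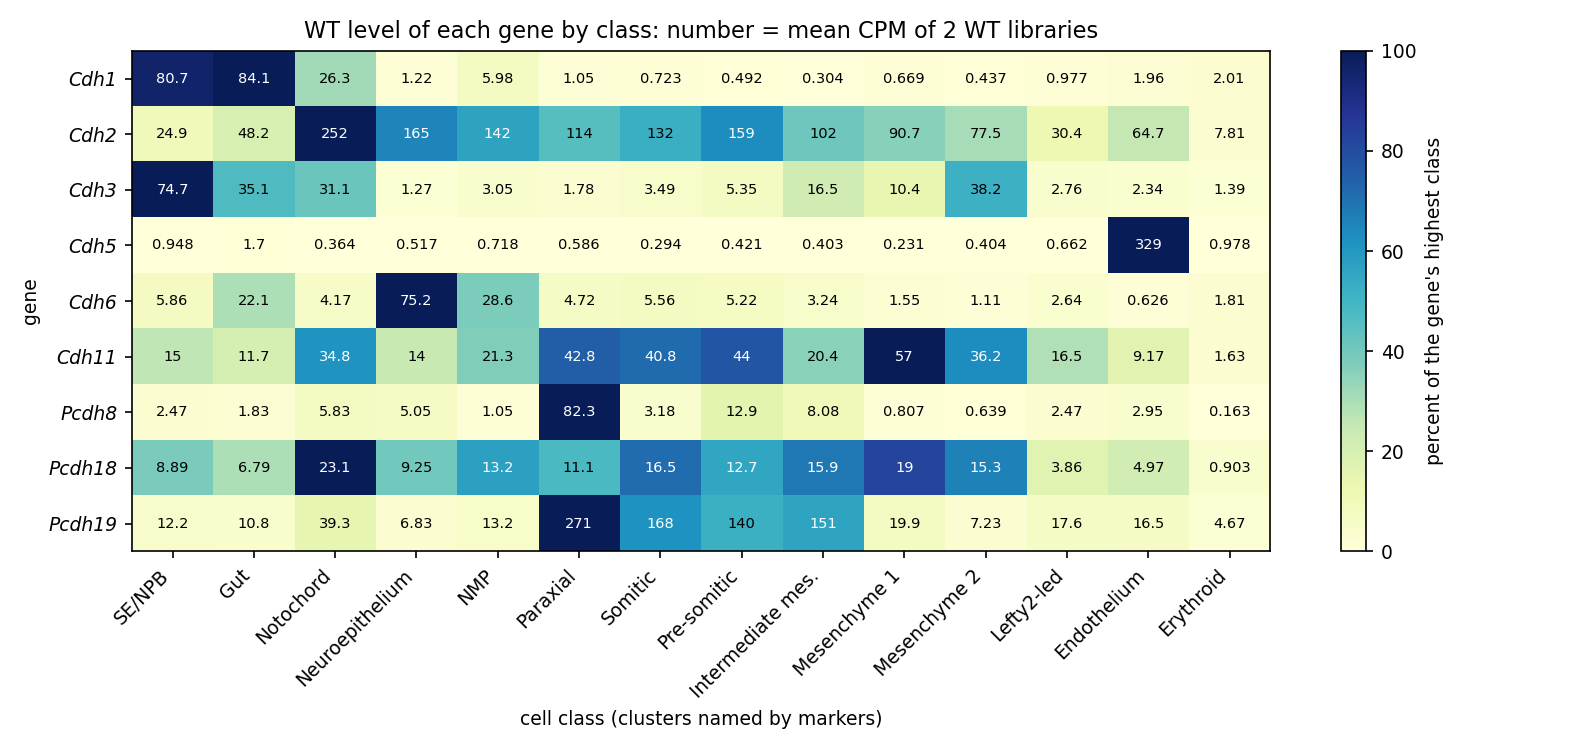
Mean CPM of the 2 WT libraries for each of the 9 genes (rows) in the 14 classes with enough cells (columns). Colour gives each value as a percent of that gene's own highest class, from 0 to 100, so that colours do not compare genes; *Cdh5* and *Pcdh8* each have 1 dark square, and *Cdh2* and *Pcdh18* are spread over many classes.

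The genes whose level followed each member most closely were found from Pearson's r of log2(CPM + 1) over 28 points, 14 classes in each of 2 WT libraries, among 10003 genes. The points of the 2 libraries share a pool, so that r is a description. *Cdh1* was closest to *Cldn6* (r = 0.99) and *Epcam* (0.97), which encode a tight junction claudin and an epithelial adhesion molecule, and to *Esrp1* (0.97). The nearest to *Cdh5* were *Tie1* (0.99), *Stab1* (0.98) and *Esam* (0.98), genes of endothelial cells. For *Cdh3*, *Pdgfc* (0.92), *Dsc2*, a desmosomal cadherin (0.91), and *Parm1* (0.91) came nearest. *Pcdh8* ran with *Tcf15*, a transcription factor of somites (0.88), *Ntn1* (0.87) and *Snap91* (0.86), and *Pcdh19* with *Foxc1*, also of paraxial mesoderm (0.93), *Magi1* (0.89) and *Rel* (0.88). *Cdh2* had *Slc7a6*, *Fkbp5* and *Pgd* (0.92, 0.92 and 0.91), *Cdh6* had *Serinc2*, *Slco5a1* and *Elavl2* (0.92, 0.89 and 0.88), *Cdh11* had *Evl*, *Rhobtb3* and *Chic2* (0.91, 0.90 and 0.90) and *Pcdh18* had *Gpc6*, *Cstf3* and *Prrc2a* (0.95, 0.94 and 0.93). Of the members themselves, *Cdh11* and *Pcdh18* had r = 0.88, *Cdh2* and *Pcdh18* 0.85, *Pcdh8* and *Pcdh19* 0.77 and *Cdh1* and *Cdh3* 0.60.

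Whether the genes differed between *Grhl3*-null and WT cells was tested within 13 classes by edgeR's quasi-likelihood test on UMIs summed per class and library, adjusted by Benjamini-Hochberg over all genes of the class. Of 117 gene and class pairs, 20 did not pass the filter on low counts and 97 were tested. In 28 pairs the gene passed at an adjusted p under 0.05, 15 higher and 13 lower in *Grhl3*-null cells, against 12.8% of all gene tests in these classes. The genes were chosen with earlier results of these data known, so that nothing is read from this difference. DESeq2 passed 14 pairs, with 5 in paraxial mesoderm, 3 in SE/NPB, 3 in gut and 1 each in Mesenchyme 1, neuroepithelium and NMPs. It gave an adjusted p to 8 of 9 genes in paraxial mesoderm and to 7 of 9 in gut and in NMPs. In SE/NPB, Mesenchyme 1 and neuroepithelium it did so for 9 of 9. The 12.8% is the share for edgeR. DESeq2 passed fewer of all genes in SE/NPB, as given below, so its 14 pairs are not set against that share. Under a stricter rule for edgeR that also asks for an absolute log2 fold change of 1 or more, 8 pairs passed, against 1.36% of all gene tests. *Cdh11* passed in 7 of 12 classes, 6 of them higher, *Pcdh19* in 4 of 13, all lower, *Cdh1*, *Cdh3*, *Cdh6* and *Pcdh18* in 3 classes each, *Cdh2* and *Pcdh8* in 2 and *Cdh5* in 1. In sums over cells, fewer cells with a gene and less RNA per cell cannot be told apart.

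In the SE/NPB class, where *Grhl3* is mainly expressed, 3 of 9 genes passed, against 13.7% of all genes tested in it. E-cadherin fell and N-cadherin and *Cdh11* rose in *Grhl3*-null cells, while P-cadherin did not pass. *Cdh1* was at 79.5 and 82.0 CPM in WT libraries and at 58.7 and 53.7 CPM in *Grhl3*-null libraries, a log2 fold change of -0.55 ± 0.06 (SE; edgeR adjusted p = 7.8e-06). Both *Grhl3*-null libraries lay below both WT libraries. *Cdh2* was at 26.0 and 23.9 CPM in WT and at 37.9 and 39.1 CPM in *Grhl3*-null libraries (0.59 ± 0.08, edgeR adjusted p = 0.00011). *Cdh11* was at 15.8 and 14.3 CPM in WT and at 23.2 and 28.2 CPM in *Grhl3*-null libraries (0.73 ± 0.11, edgeR adjusted p = 0.00023). For both genes the groups did not overlap, with the *Grhl3*-null libraries higher. *Cdh3*, at 73.3 and 76.1 CPM against 69.5 and 72.3 CPM, had a log2 fold change of -0.11 ± 0.05 (edgeR adjusted p = 0.197). Of the genes that did not pass, *Pcdh19* (-0.60) passed without WT replicate 2 (-0.85) or *Grhl3*-null replicate 1 (-1.05), *Cdh6* (0.40) without WT replicate 1 (0.72) or *Grhl3*-null replicate 1 (0.60), and *Pcdh18* (0.40) and *Pcdh8* (-0.68) without *Grhl3*-null replicate 1 (0.53 and -2.28).

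The direction of the 3 SE/NPB differences was the same in cells of either sex. The log2 fold change of *Cdh1* was -0.68 ± 0.09 in male and -0.61 ± 0.08 in female cells, and that of *Cdh11* 0.78 ± 0.21 and 0.89 ± 0.15. *Cdh2* was 0.30 ± 0.15 in male cells, which did not pass, and 0.96 ± 0.10 in female cells, and this difference between the sexes passed its own test (-0.65, edgeR adjusted p = 0.0146). *Cdh3*, which did not pass in the whole class, was -0.39 ± 0.10 in male and 0.03 ± 0.07 in female cells, and this difference also passed (-0.41, edgeR adjusted p = 0.0239). Every cell weighted alike, the mean of *Cdh1* was 76.9 and 77.1 CPM in WT and 57.5 and 54.6 CPM in *Grhl3*-null libraries. When each cell was thinned to 7500 UMIs, which leaves fewer counts, the log2 fold changes were -0.37, 0.59 and 0.45 for *Cdh1*, *Cdh2* and *Cdh11* and none passed (edgeR adjusted p = 0.151, 0.103 and 0.376).

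The share of SE/NPB cells with a *Cdh1* UMI was 82.1% and 83.0% in WT and 79.8% and 75.3% in *Grhl3*-null libraries, and at equal depth 36.1% and 37.1% against 34.6% and 36.5%. In neuroepithelium, which is known to lack E-cadherin, the shares were 3.21% to 4.65%, and 0.641% to 1.16% at equal depth. Median depths were 35873 to 42228 UMIs in SE/NPB and 33746 to 35456 UMIs in neuroepithelial libraries. The share with a *Cdh2* UMI was 39.3% and 38.4% against 51.7% and 48.7%, and at equal depth 14.7% and 12.1% against 20.5% and 20.9%. At equal depth, therefore, the *Cdh1* shares of the genotypes overlapped, and those of *Cdh2* did not.

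Markers of other cells moved in the SE/NPB class as well. The summed level of 15 neuroepithelial markers was 1461 and 1430 CPM in WT and 1693 and 1720 CPM in *Grhl3*-null libraries, with 4 markers higher and 1 lower of 14 tested. That of 15 Mesenchyme 1 markers was 1104 and 1120 CPM against 1317 and 1422 CPM, with 5 higher and 0 lower. The class's own 15 markers summed to 5514 and 5885 CPM against 5410 and 5690 CPM, with 1 higher and 6 lower. No marker of these 3 lists was at 0 in all libraries. Lists of further cells moved either way. Intermediate mesoderm had 5 markers higher and 0 lower, and gut 4 higher and 5 lower. Pre-somitic mesoderm had 1 higher and 7 lower, endothelium 1 higher and 4 lower, and erythroid cells 0 higher and 5 lower. Of all genes tested in the SE/NPB class 13.7% passed. The part of other cells in the *Cdh2* and *Cdh11* values was not tested.

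Single SE/NPB cells were also compared with *Tfap2a*, a transcription factor of surface ectoderm and neural plate border. At equal depth, *Cdh2* was found in 4.59% and 3.604% of WT cells with a *Tfap2a* UMI and in 14.3% and 16.7% of such *Grhl3*-null cells. Among cells without a *Tfap2a* UMI the shares were 22.4% and 20.4% in WT and 26.9% and 24.8% in *Grhl3*-null libraries. The cells with *Tfap2a* numbered 109, 111, 133 and 126. Both genotypes thus had fewer *Cdh2* cells among *Tfap2a* cells than among the others. Over 476 WT and 526 *Grhl3*-null cells of the class, which share libraries and class, Pearson's r of *Cdh2* with *Tfap2a* was -0.49 and -0.38, that of *Cdh11* with *Tfap2a* -0.41 and -0.46, and that of *Cdh1* with *Cdh2* -0.26 and -0.32. *Cdh1* had r = 0.36 with *Grhl3* in WT cells. Cells with UMIs of both *Cdh1* and *Cdh2* made up 4.76%, 3.57%, 5.70% and 4.18% of the class at equal depth, in the order of the libraries above.

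In the gut class, 5 of 9 genes passed, against 19.3% of all genes tested in it, and *Cdh1*, *Cdh2* and *Cdh11* moved opposite to their direction in the SE/NPB class. *Cdh6* was at 21.4 and 22.7 CPM in WT and at 48.5 and 52.6 CPM in *Grhl3*-null libraries (log2 fold change 1.16 ± 0.07, edgeR adjusted p = 5.3e-10). *Cdh2* was at 47.2 and 49.2 CPM against 33.8 and 34.6 CPM (-0.53 ± 0.06, edgeR adjusted p = 3.9e-06). *Cdh1* was at 86.0 and 82.1 CPM against 102.4 and 101.0 CPM (0.24 ± 0.05, edgeR adjusted p = 0.00296). In these genes the groups did not overlap, with *Cdh6* and *Cdh1* higher and *Cdh2* lower in the *Grhl3*-null libraries. *Cdh6* kept its direction and size in male (1.04 ± 0.11) and female cells (1.24 ± 0.11), and *Cdh2* was -0.56 ± 0.11 and -0.42 ± 0.10, all 4 past the threshold. *Cdh1* was 0.25 ± 0.07 in male cells and 0.13 ± 0.07 in female cells, where it did not pass. The share of gut cells with a *Cdh6* UMI at equal depth was 9.35% and 9.92% in WT and 19.4% and 23.9% in *Grhl3*-null libraries, and unthinned 31.7% and 31.4% against 44.3% and 47.8%. In erythroid cells it was 1.67% to 2.99% at equal depth and 2.00% to 7.35% unthinned, with median depths of 36346 to 47071 UMIs there and 37028 to 42721 in gut.

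The 2 further gut results each rested on 1 WT library. *Cdh3* was at 38.1 and 32.1 CPM in WT and at 29.2 and 27.0 CPM in *Grhl3*-null libraries (-0.36 ± 0.08, edgeR adjusted p = 0.00295), and without WT replicate 1 it was -0.23 (edgeR adjusted p = 0.0868). *Cdh11* was at 8.74 and 14.6 CPM against 8.43 and 6.39 CPM (-0.68 ± 0.19, edgeR adjusted p = 0.0144). Without WT replicate 2 it was -0.27 (edgeR adjusted p = 0.348), and without WT replicate 1 it was -1.02. In male cells *Cdh11* was -0.0086 ± 0.25 and *Cdh3* -0.15 ± 0.11, neither of which passed, and in female cells they were -0.95 ± 0.25 and -0.46 ± 0.12, which did. The class's own 15 markers summed to 5617 and 6048 CPM in WT and to 8099 and 8118 CPM in *Grhl3*-null libraries, with 12 higher and 1 lower, and the part of this shift in the cadherin values was not tested.

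The difference between the classes was tested directly, as the genotype effect in SE/NPB minus that in another class. Against gut, 5 of 9 genes passed, where 13.5% of all genes did. The differences were 1.39 ± 0.21 for *Cdh11*, 1.12 ± 0.10 for *Cdh2*, -0.79 ± 0.07 for *Cdh1*, -0.76 ± 0.19 for *Cdh6* and 0.75 ± 0.21 for *Pcdh18*, on the log2 scale. The call for *Cdh6* was lost without WT replicate 1 (-0.39), and its sign turned when clusters came from log-normalised counts (0.38) or classes from marker scores (0.24), where it did not pass. The call for *Pcdh18* was lost without WT replicate 2 (0.63) and without *Grhl3*-null replicate 2 (0.59). Against neuroepithelium, 3 of 9 passed, where 13.4% of all genes did, with 0.58 ± 0.08 for *Cdh2*, 1.06 ± 0.33 for *Cdh3* and -0.84 ± 0.26 for *Cdh1*. The call for *Cdh1* was lost in 3 of 4 fits without 1 library, at -0.61 without WT replicate 2, -0.81 without *Grhl3*-null replicate 1 and -0.86 without *Grhl3*-null replicate 2, and with classes from marker scores its sign turned (0.60). That for *Cdh3* was lost without WT replicate 1 (0.86) and without *Grhl3*-null replicate 1 (0.59).

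**Figure D2:**
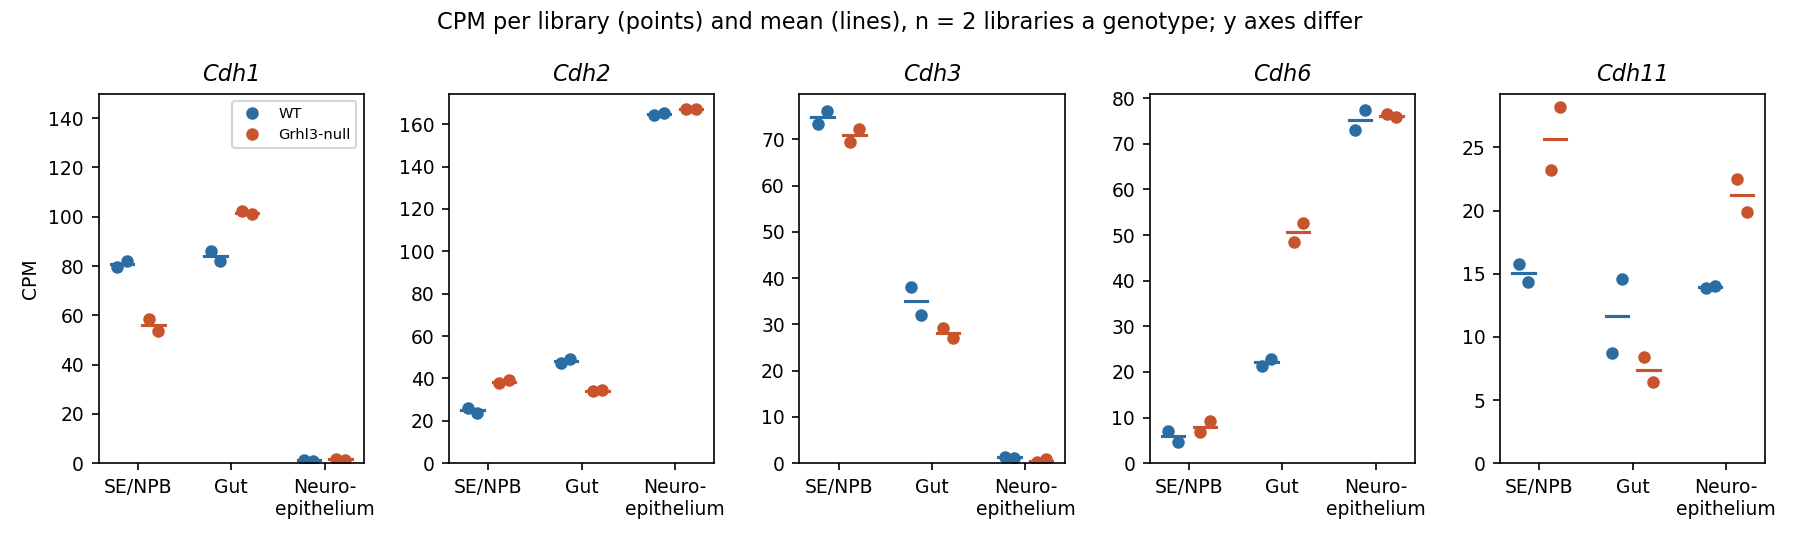
CPM (linear axes from 0, a different range in each panel) of 5 cadherins in the SE/NPB, gut and neuroepithelium classes. Points are libraries and lines the mean of the 2 libraries of a genotype; *Cdh1* and *Cdh2* lie on opposite sides of WT in SE/NPB and in gut, and *Cdh6* in gut is at 48.5 and 52.6 CPM in the *Grhl3*-null libraries against 21.4 and 22.7 CPM.

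In neuroepithelium, 2 of 9 genes passed, against 21.4% of all genes tested in it. *Cdh2* and *Cdh6*, both at their high levels here, had log2 fold changes of -0.003 ± 0.04 and -0.01 ± 0.04 and did not pass (edgeR adjusted p = 0.962 and 0.934). In male and female cells *Cdh6* had opposite signs, at -0.20 ± 0.07 and 0.44 ± 0.07, both past the threshold (difference -0.64, edgeR adjusted p = 2.1e-06). *Cdh2* was 0.03 ± 0.06 in male and -0.19 ± 0.06 in female cells, where it passed (difference 0.22, edgeR adjusted p = 0.0486). *Cdh11* was at 13.9 and 14.0 CPM in WT and at 22.5 and 19.9 CPM in *Grhl3*-null libraries (0.58 ± 0.08, edgeR adjusted p = 0.00012). Its size differed between the sexes, with 0.20 ± 0.17 in male and 1.65 ± 0.11 in female cells (difference -1.46, edgeR adjusted p = 2.7e-07). With finer clustering, at resolution 0.8, it was -0.10 and did not pass. *Cdh3*, at 1.40 and 1.14 CPM against 0.328 and 0.805 CPM, passed at -1.18 ± 0.37, and its call was lost without WT replicate 1 (-1.01) and without *Grhl3*-null replicate 1 (-0.69).

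In NMPs, 2 of 9 genes passed, against 18.6% of all genes tested in them. *Cdh1* was at 5.55 and 6.41 CPM in WT and at 2.64 and 3.07 CPM in *Grhl3*-null libraries (-1.09 ± 0.13, edgeR adjusted p = 0.00019). The direction held only for female cells: in them *Cdh1* was at 7.62 and 8.23 CPM against 2.32 and 1.86 CPM (-1.93 ± 0.17), and in male cells at 1.78 and 2.75 CPM against 3.37 and 5.03 CPM (0.92 ± 0.29, edgeR adjusted p = 0.0991). The difference between the sexes was 2.83 (edgeR adjusted p = 2e-06). *Cdh6* was higher in *Grhl3*-null NMPs, at 28.8 and 28.5 CPM against 35.3 and 32.6 CPM (0.23 ± 0.05), and without *Grhl3*-null replicate 1 it was 0.16 and did not pass.

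In paraxial mesoderm, 5 of 9 genes passed, against 22% of all genes tested in it. *Pcdh8* was at 81.5 and 83.1 CPM in WT and at 42.3 and 43.8 CPM in *Grhl3*-null libraries (-0.96 ± 0.04, edgeR adjusted p = 1.4e-09). *Pcdh19* was at 268 and 274 CPM against 173 and 175 CPM (-0.67 ± 0.03, edgeR adjusted p = 1.8e-08). Both protocadherins were therefore lower in each *Grhl3*-null library, while 3 genes were higher. *Cdh6* was at 3.64 and 5.81 CPM against 9.86 and 9.97 CPM (1.05 ± 0.14), *Pcdh18* at 10.52 and 11.7 CPM against 15.0 and 15.5 CPM (0.43 ± 0.07) and *Cdh11* at 43.7 and 41.965 CPM against 52.3 and 53.8 CPM (0.28 ± 0.04).

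In 4 of these 5 genes the sign turned between male and female cells. Of 568 and 508 WT cells of the class, 63 and 69 were called male and 406 and 346 female. Of 591 and 593 *Grhl3*-null cells, 314 and 314 were called male and 66 and 63 female. The rest, a larger share of the class in the *Grhl3*-null libraries, were called neither sex and are left out here. In male cells *Pcdh8* was at 118 and 109 CPM in WT and at 27.8 and 30.8 CPM in *Grhl3*-null libraries (-1.98 ± 0.08). In female cells it was at 84.7 and 97.3 CPM in WT and at 139 and 137 CPM in *Grhl3*-null libraries (0.61 ± 0.07). *Pcdh8* was thus lower in *Grhl3*-null cells of one sex and higher in those of the other, without overlap in either, and the difference was -2.58 (edgeR adjusted p = 7e-19). *Pcdh19* was at 440 and 419 against 137 and 129 CPM in male cells (-1.71 ± 0.06) and at 248 and 259 against 356 and 381 CPM in female cells (0.55 ± 0.05). *Cdh6* was 2.07 ± 0.46 in male and -0.18 ± 0.38 in female cells, where it did not pass. *Cdh11* was 1.41 ± 0.13 and -0.45 ± 0.11. *Pcdh18* was 0.80 ± 0.21 and 0.19 ± 0.20, and its difference did not pass (edgeR adjusted p = 0.142).

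Markers of this series moved with the protocadherins. The 13 paraxial mesoderm markers summed to 3216 and 2835 CPM in WT and to 2624 and 2582 CPM in *Grhl3*-null libraries, with 0 higher and 11 lower, and 14 of 15 pre-somitic markers were lower. The 15 neuroepithelial markers summed to 1125 and 1170 CPM against 1515 and 1572 CPM, with 13 higher. Their part in the paraxial values was not tested.

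Within the class, *Pcdh8* was found more often in cells with a UMI of *Ripply2* or *Mesp2*, which mark the forming somite boundary, than in cells without one. At equal depth a *Pcdh8* UMI was found in 86.2% and 78.6% of WT cells with a *Ripply2* UMI, and in 16.8% and 19.3% of those without. In *Grhl3*-null libraries the shares were 71.4% and 84.7% against 9.40% and 9.18%. Cells with a *Ripply2* UMI numbered 116 and 103 in WT and 70 and 59 in *Grhl3*-null libraries. With *Mesp2* the shares were 75.4% and 59.0% in WT and 53.3% and 53.8% in *Grhl3*-null libraries, from 65, 39, 15 and 26 cells, and without it 25.2% and 29.0% against 15.8% and 15.0%. Most cells with *Pcdh8* had no *Mesp2* UMI, since cells with both made up 8.63% and 4.53% of the WT class and cells with *Pcdh8* alone 22.4% and 26.8%. In endothelium, where *Pcdh8* should be absent, 0% to 1.31% of cells had a UMI of it at equal depth and 2.03% to 5.21% unthinned, against 16.7% to 31.3% and 30.6% to 52.2% in paraxial mesoderm. Paraxial libraries had median depths of 37710 to 53965 UMIs and endothelial ones 35643 to 39228 UMIs.

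**Figure D3:**
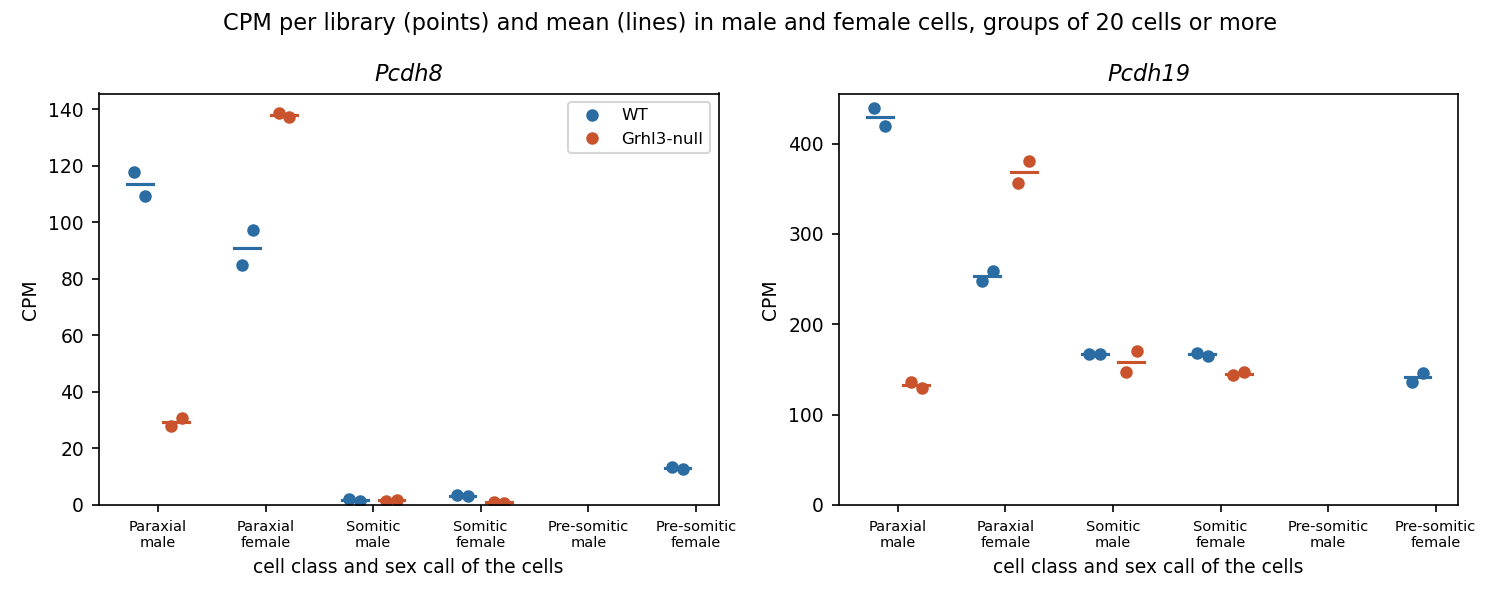
CPM (linear axes from 0) of *Pcdh8* and *Pcdh19* in male and female cells of 3 mesoderm classes, for groups of at least 20 cells in a library. Points are libraries and lines their mean; in paraxial mesoderm *Grhl3*-null points lie below WT in male cells and above WT in female cells for both genes, and no *Grhl3*-null group of pre-somitic cells was large enough to plot.

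In somitic mesoderm, 3 of 9 genes passed, against 18.2% of all genes tested in it. *Pcdh8* was at 3.46 and 2.91 CPM in WT and at 1.38 and 1.55 CPM in *Grhl3*-null libraries (-1.13 ± 0.20, edgeR adjusted p = 0.00055), with 0.02 ± 0.37 in male and -1.72 ± 0.29 in female cells. *Pcdh19* (-0.14 ± 0.04) and *Cdh11* (0.16 ± 0.04) moved little, and their calls were lost without WT replicate 1, at -0.10 and 0.12. The call for *Cdh11* was also lost without *Grhl3*-null replicate 2 (0.15). At resolution 0.8 both turned their sign, to 0.15 for *Pcdh19* and -0.27 for *Cdh11*. By DESeq2 0 of the 3 passed, and *Pcdh8* was given no adjusted p. Pre-somitic mesoderm held 498 and 473 WT cells, 490 and 465 of them female, but 3 and 2 *Grhl3*-null cells, and could not be tested. With both classes joined, an alternative chosen after seeing the data, *Pcdh8* was -1.97 and *Pcdh19* -0.07, which no longer passed.

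In Mesenchyme 1, 4 of 9 genes passed, against 7.63% of all genes tested in it. *Pcdh19* was at 19.9 and 19.9 CPM in WT and at 10.3 and 9.54 CPM in *Grhl3*-null libraries (-0.99 ± 0.08, edgeR adjusted p = 5.4e-08), but only female cells showed it, with -1.74 ± 0.10 against 0.15 ± 0.16 in male cells (difference 1.89, edgeR adjusted p = 4.8e-11). *Pcdh18* was 0.26 ± 0.06, not passing without WT replicate 2 (0.23), and *Cdh11* 0.20 ± 0.04, not passing without *Grhl3*-null replicate 1 (0.17). *Cdh5*, at 0.204 and 0.257 CPM in WT and at 0.621 and 0.752 CPM in *Grhl3*-null libraries (1.57 ± 0.43), lost its call without any 1 of the 4 libraries, at 1.41 to 1.73. In Mesenchyme 2, 2 of 6 genes passed, against 20.9% of all genes tested in it. *Cdh11* was at 36.4 and 36.0 against 44.1 and 43.6 CPM (0.27 ± 0.06), with -1.10 ± 0.10 in male and 1.21 ± 0.09 in female cells. It did not pass without *Grhl3*-null replicate 1 (0.26) or *Grhl3*-null replicate 2 (0.29). *Pcdh18*, at 0.37 ± 0.10, did not pass without WT replicate 1 (0.25), *Grhl3*-null replicate 1 (0.35) or *Grhl3*-null replicate 2 (0.39). By DESeq2 0 genes passed in Mesenchyme 2.

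Of the other classes, 2 had 1 gene that passed. In intermediate mesoderm, where 2.74% of all genes passed, 1 of 7 genes, *Cdh3*, did so, at 18.1 and 14.8 CPM in WT against 7.76 and 6.77 CPM in *Grhl3*-null libraries (-1.15 ± 0.20, edgeR adjusted p = 0.00144). Its UMIs there came from female WT cells, at 27.1 and 20.4 CPM, and from male *Grhl3*-null cells, at 7.33 and 10.3 CPM. Male WT cells and female *Grhl3*-null cells, 21 to 23 cells in each library, had no *Cdh3* UMI, which allows up to 2.61 to 3.86 CPM. In the *Lefty2*-led cluster, where 4.25% of all genes passed, 1 of 4 did: *Pcdh19* was at 20.1 and 15.2 CPM against 5.27 and 6.42 CPM (-1.58 ± 0.33), and without WT replicate 1 it was -1.36 (edgeR adjusted p = 0.0508). By DESeq2 0 genes passed in either class (adjusted p = 0.0799 for *Cdh3* and 0.202 for *Pcdh19*).

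In 3 classes 0 genes passed by edgeR. At an unadjusted p under 0.05 it gave 1 gene in endothelium (*Pcdh19*), 1 in notochord (*Cdh11*) and 0 in erythroid cells. DESeq2 gave an adjusted p to 3 of 7 genes in endothelium, 8 of 8 in notochord and 0 of 2 in erythroid cells, and 0 passed. In endothelium, where 0.795% of all genes passed, *Cdh5* was at 317 and 342 CPM in WT and at 338 and 273 CPM in *Grhl3*-null libraries (-0.12 ± 0.08, edgeR adjusted p = 0.603). The share of endothelial cells with a *Cdh5* UMI was 80.4% and 80.0% in WT and 67.7% and 61.9% in *Grhl3*-null libraries, and at equal depth 64.1% and 64.5% against 56.3% and 48.2%, without overlap. Without *Grhl3*-null replicate 1 the log2 fold change of *Cdh5* was -0.28 and passed. *Pcdh19* (-0.64 ± 0.21) passed there at -0.96 without WT replicate 2 and at -0.70 without *Grhl3*-null replicate 1. In notochord, where 4.51% of all genes passed, *Cdh2* was at 273 and 230 CPM against 236 and 232 CPM (-0.10 ± 0.09, edgeR adjusted p = 0.659). Without WT replicate 2, *Cdh11* passed there at -0.89 and *Pcdh8* at 2.70. In erythroid cells, where 0.443% of all genes passed, only *Cdh2* and *Pcdh19* were tested, at -0.08 and -0.77.

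**Figure D4:**
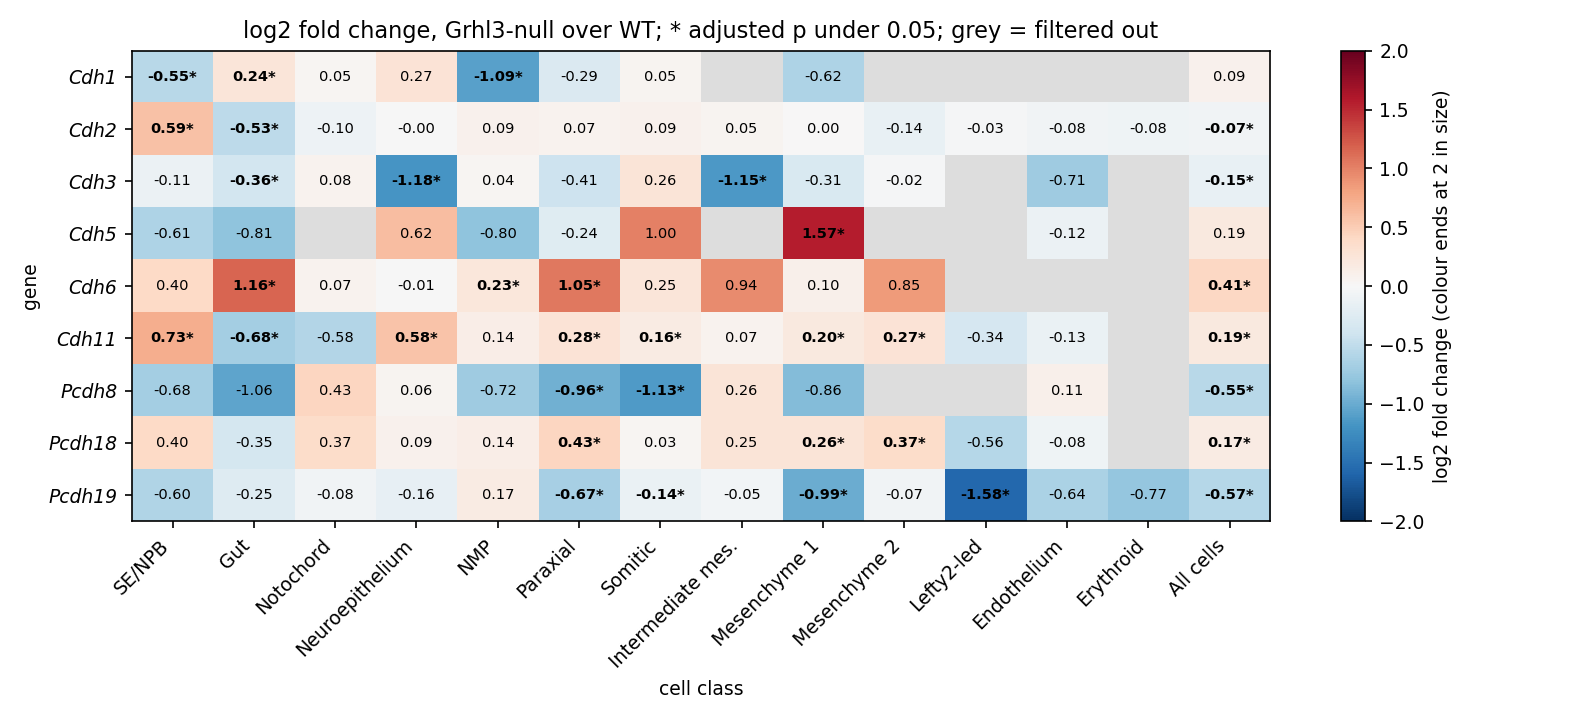
The log2 fold change of *Grhl3*-null over WT for each gene (rows) in 13 classes and in all cells (columns), from blue (lower) to red (higher), with an asterisk at an adjusted p under 0.05 and grey where the gene did not pass the filter on low counts. *Cdh11* is red with an asterisk in 6 classes and blue with one in gut, and every asterisk of *Pcdh19* is on blue.

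Over all classes, 26 of the 28 called pairs could be tested for a difference of the genotype effect between male and female cells, and 13 passed. One of the 13, *Cdh3* in intermediate mesoderm, had a genotype with no UMI in each sex, so that its fold change has no bound. Among all genes called in the same 10 classes, 34.8% passed this test. Of 24 other pairs fitted in both sexes, 15 had the same sign in both and 9 opposite signs. Of these 9, *Pcdh8*, *Pcdh19* and *Cdh11* in paraxial mesoderm and *Cdh11* in Mesenchyme 2 passed in both sexes. In the others the value of either the male or the female cells did not pass. *Cdh6*, *Cdh2*, *Cdh3*, *Cdh1* in gut and *Cdh1* and *Cdh11* in SE/NPB had the same sign in both sexes and a difference that did not pass. In paraxial mesoderm *Pcdh8*, *Pcdh19*, *Cdh6* and *Cdh11* turned their sign and *Pcdh18* did not, and in NMPs *Cdh1* did and *Cdh6* did not (0.39 in male and 0.10 in female cells).

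**Figure D5:**
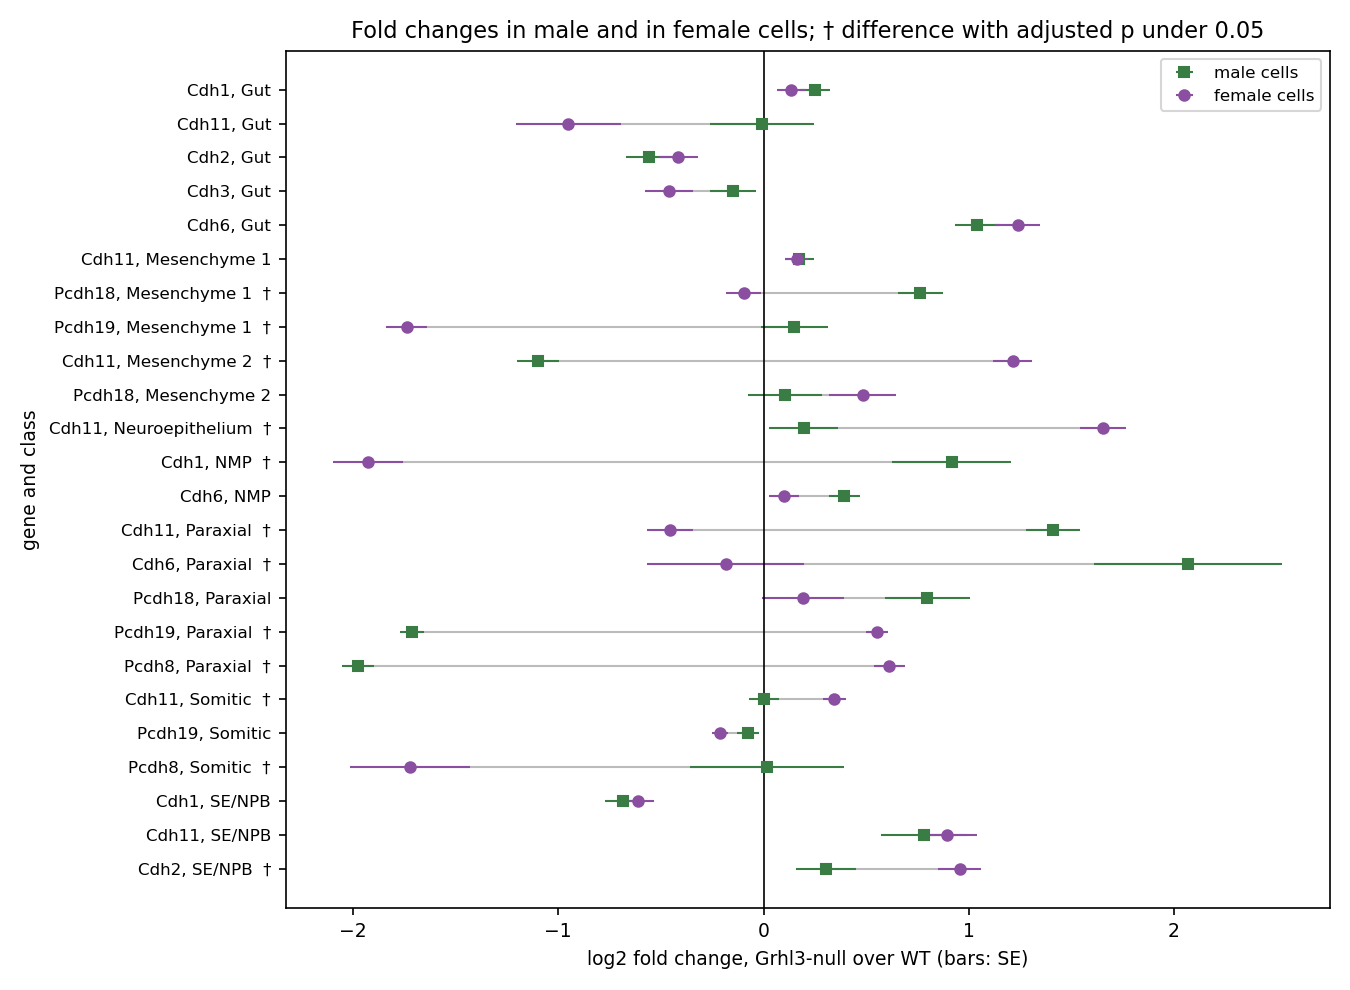
The log2 fold change of *Grhl3*-null over WT (x axis) in male cells (green squares) and in female cells (purple circles) for pairs called in the whole class (y axis), with bars of 1 SE, a grey line joining the sexes and a dagger where their difference passed. Squares and circles of *Cdh1* in SE/NPB and *Cdh6* in gut lie together, and those of *Pcdh8* in paraxial mesoderm lie at -1.98 and 0.61.

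Over all cells, without regard to class, 7 of 9 genes passed, where 35.5% of all genes did. *Pcdh19* was at 81.3 and 82.5 CPM in WT and at 57.7 and 55.3 CPM in *Grhl3*-null libraries (-0.57 ± 0.03, edgeR adjusted p = 1.4e-05). *Pcdh8* was at 13.02 and 12.9 CPM against 8.76 and 9.35 CPM (-0.55 ± 0.04, edgeR adjusted p = 5.2e-05). Both fell in male cells (-0.83 and -0.41) and in female cells (-0.82 and -1.08). Within the paraxial mesoderm class both rose in female cells (0.55 and 0.61) and fell in male cells (-1.71 and -1.98). *Cdh6* was at 15.6 and 15.9 CPM against 21.1 and 21.7 CPM (0.41 ± 0.03), with 0.77 in male and 0.01 in female cells. *Cdh11* (0.19 ± 0.02) and *Pcdh18* (0.17 ± 0.03) rose and *Cdh3* (-0.15 ± 0.03) and *Cdh2* (-0.07 ± 0.02) fell by less, and the call for *Cdh2* was lost without WT replicate 1 (-0.08), WT replicate 2 (-0.07) or *Grhl3*-null replicate 2 (-0.05). *Cdh1* (0.09) did not pass, but did so without WT replicate 1 (0.13), and *Cdh5* (0.19) passed without WT replicate 2 (0.31) or *Grhl3*-null replicate 2 (0.27). These sums mix levels within classes with the numbers of cells: neuroepithelium, the class with most *Cdh6*, made up 9.27% and 9.15% of WT and 12.4% and 13.6% of *Grhl3*-null cells.

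Partners of the cadherins were read in the same tests. Of 20 genes of the cadherin adhesion complex, 19 were tested in the SE/NPB class, of which 1 rose, 2 fell and 16 did not pass. Of all genes tested in this class 13.7% passed. The median log2 fold change of the 19 was 0.06, against 0.002 over all genes. *Nectin4*, a nectin of epithelial junctions, fell by 2.66 on the log2 scale, and *Jup*, plakoglobin, fell by 0.46, while *Pkp4* rose by 0.23. In gut 3 of 18 rose and 0 fell, in paraxial mesoderm 4 rose and 2 fell of 18, and in neuroepithelium 6 rose and 1 fell of 18, where 19.3%, 22% and 21.4% of all genes passed. Of 9 transcription factors known to act on *Cdh1*, all tested in SE/NPB, *Ovol1*, which favours the epithelial state, was lower (-1.71 ± 0.19, edgeR adjusted p = 1.2e-05) and *Twist1*, a repressor of *Cdh1*, was higher (0.27 ± 0.09, edgeR adjusted p = 0.0427). The other 7 did not pass, in a class where 13.7% of all genes did. *Twist1* was also higher in gut (0.81 ± 0.20), where *Cdh1* was higher too, and in neuroepithelium (1.10 ± 0.17). In gut it was the 1 of 9 that rose, in paraxial mesoderm 1 rose and 2 fell of 5, and in neuroepithelium 4 of 6 rose. The shares of all genes that passed there were the same 19.3%, 22% and 21.4%.

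The rest of the superfamily was mostly low. Of 109 further genes, 22 reached 1 CPM over all WT cells and 18 had no UMI in them. The 5 highest were *Fat1* (40.3 CPM), *Celsr1* (25.6 CPM), *Clstn1* (24.4 CPM), *Pcdh7* (15.9 CPM) and *Dchs1* (11.8 CPM), the means of 2 WT libraries, with SDs of 0.262 to 1.16 CPM. In SE/NPB, where 13.7% of all genes passed, 25 were tested. *Pcdh11x* (0.55 ± 0.17) and *Clstn1* (0.35 ± 0.08) rose, *Dsc2* (-0.60 ± 0.09) and *Pcdh1* (-0.26 ± 0.08) fell and 21 did not pass. In gut 2 rose and 2 fell of 27, in paraxial mesoderm 4 rose and 1 fell of 39, and in neuroepithelium 6 rose and 4 fell of 37, against the same 19.3%, 22% and 21.4% of all genes.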

How the data were processed

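Single-cell profiles of caudal tissue from E8.5 embryos were made with 10x Genomics 3′ v3.1 chemistry, and the authors aligned and counted the reads with Cell Ranger on mm10. The deposited values are raw counts of UMIs per gene and cell, not normalised. Following the limits in the study's methods, a barcode was kept if it had 3000 or more genes, 7500 or more UMIs and a mitochondrial share of 7% or less. Counts were normalised with SCTransform in Seurat 5.3.0 and clustered on 30 principal components at resolution 0.4. The 3000 variable features were used less 13 genes with symbols of Cdh and a digit or Pcdh. Other genes of the superfamily, such as *Dsc2*, were not removed. A cluster was named "-like" from marker lists, which come from the study's own clusters of these cells.

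UMIs were summed per class and library, and CPM is a gene's sum per 1000000 UMIs of that sum. Classes with at least 20 cells in every library were tested with edgeR 4.0.16 (TMM, filterByExpr, quasi-likelihood test) over all genes, with Benjamini-Hochberg adjustment. Values are followed by SEs, and classes are compared with each other only by description. Differences between classes, and between male and female cells, were fitted with library as a term. Cells with 2 or more Y-linked UMIs and under 3 UMIs of *Xist* were called male, and those with 3 or more of *Xist* and under 2 Y-linked UMIs female. Scrublet called 0% to 0.063% of cells as doublets, which is too few to rely on, so that doublets were removed only as an alternative, as the 5% with the highest scores. Thinning drew 7500 UMIs from every cell. UMIs of 3′ libraries do not compare levels between genes. Floors for a count of 0 take 3 counts and cover counting error only. The tests were checked on simulated counts.

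The 9 genes and all gene lists were chosen with earlier results of these data known. Named with values are the 9 genes, *Grhl3*, the 3 genes most like each, co-detected partners, and, of the lists, at most 6 genes a list that passed in the SE/NPB class. Alternatives were DESeq2 1.42.0, library totals, no filter on low counts, doublets removed, a mitochondrial limit of 5%, each sex, a replicate block, leaving out each library and 4 other ways of making classes. Joined mesoderm classes, thinned sums and the test of male against female cells were added after seeing the data.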

Additional observations from a re-analysis of the deposited data

Results flagged for a closer look

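In 36 results the genotype effect differed between 2 groups of cells by a test of the difference itself (edgeR, adjusted p under 0.05). Against gut 5 of 9 genes passed, where 13.5% of all genes did, and against neuroepithelium 3 of 9, where 13.4% did. For male against female cells the share is known only among genes called in a class, at 34.8%. The number 36 is therefore not read as a result about these genes. All values are differences of log2 fold changes (*Grhl3*-null over WT).

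Between the SE/NPB and gut classes, the effect in SE/NPB minus that in gut was 1.39 for *Cdh11*, 1.12 for *Cdh2*, 0.75 for *Pcdh18*, -0.76 for *Cdh6* and -0.79 for *Cdh1*. E-cadherin and N-cadherin thus had opposite signs here, the genotype effect on *Cdh1* being lower and that on *Cdh2* higher in SE/NPB than in gut. Between SE/NPB and neuroepithelium the difference was 1.06 for *Cdh3*, 0.58 for *Cdh2* and -0.84 for *Cdh1*.

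Between male and female cells of a class, the effect in male minus that in female cells was 2.83 for *Cdh1* in NMPs. In paraxial mesoderm it was -2.58 for *Pcdh8*, -2.25 for *Pcdh19*, 2.30 for *Cdh6* and 1.87 for *Cdh11*. In somitic mesoderm it was 1.74 for *Pcdh8* and -0.34 for *Cdh11*, so that *Pcdh8* differed with the opposite sign in the neighbouring class. The other differences within classes were 1.89 for *Pcdh19* and 0.86 for *Pcdh18* in Mesenchyme 1, -2.31 for *Cdh11* in Mesenchyme 2, -1.46 for *Cdh11* in neuroepithelium and -0.65 for *Cdh2* in SE/NPB. Over all cells they were 0.76 for *Cdh6*, 0.67 for *Pcdh8*, -0.40 for *Cdh11* and 0.13 for *Cdh2*. Genes that did not pass in the class as a whole also differed: *Pcdh8* (3.12), *Cdh1* (-2.25), *Cdh6* (-0.64) and *Cdh2* (0.22) in neuroepithelium, *Pcdh19* (-1.0), *Cdh11* (-1.0) and *Cdh2* (-0.18) in NMPs, *Cdh2* in Mesenchyme 2 (1.49), *Pcdh8* (3.50) and *Cdh3* (-0.41) in SE/NPB, and *Cdh5* (-0.67) and *Cdh1* (0.24) over all cells. Some of these genes were low. *Pcdh8* in SE/NPB, at 0.522 to 3.44 CPM in the whole class, did not pass the filter on low counts in male cells fitted alone. *Cdh1* in neuroepithelium was at 1.04 to 1.60 CPM in the whole class. *Cdh3* in intermediate mesoderm was left out, having a genotype with no UMI in each sex. Male and female cells of a pool are cells of different embryos, so that sex, embryo and stage cannot be told apart in any of these values.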

How the results depend on the processing

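Of 43 called results, 7 kept their direction and call under every alternative that was run for them. These were *Cdh2* and *Cdh6* in gut, *Cdh2* and *Cdh1* in SE/NPB against gut, *Cdh2* in SE/NPB against neuroepithelium, and *Pcdh8* and *Pcdh19* over all cells. With sex left aside 14 did, and with thinning also left aside 22. Differences between classes were not fitted by sex or on thinned counts, and sums over all cells had no other clusterings. Their place among the 7 thus rests on fewer alternatives, and sums over all cells also mix levels with numbers of cells. Within SE/NPB, *Cdh2* did not pass in male cells, and neither *Cdh1* nor *Cdh2* passed on thinned counts. Against 28 calls within classes, DESeq2 gave 14 and thinned cells 11. Leaving out a library lost some calls and added others, as given for single genes above, so that a like count need not hold the same genes. Over all cells there were 7 calls, and 4 in male cells, among them *Cdh1*, which is not of the 7. Without 1 library the called genes changed, with *Cdh2* losing its call and *Cdh1* or *Cdh5* gaining one, as given above. Against gut 5 calls became 2 with DESeq2, and 4 to 5 without 1 library. Against neuroepithelium 3 became 1 with DESeq2 and 5 with doublets removed, at resolution 0.8 or by marker scores, and 2 to 4 without 1 library. Over all genes of the SE/NPB class DESeq2 passed 595 where edgeR passed 1727, and 269 and 372 where edgeR passed 1810 and 1812 in the differences from gut and neuroepithelium; the cause was not tested. The class with the highest WT level was the same for 9 of 9 genes without either WT library, with thinned shares and with doublets removed, and for 7 to 9 with other clusterings or a stricter mitochondrial limit.

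Signs turned mainly with sex. In female cells log2 fold changes were 0.61 for *Pcdh8*, 0.55 for *Pcdh19*, -0.45 for *Cdh11* and -0.18 for *Cdh6* in paraxial mesoderm, -0.10 for *Pcdh18* in Mesenchyme 1, and 0.44 for *Cdh6* and -2.30 for *Pcdh8* in neuroepithelium. In male cells they were 0.15 for *Pcdh19* in Mesenchyme 1, -1.10 for *Cdh11* and 0.80 for *Cdh2* in Mesenchyme 2, 0.92 for *Cdh1* and -0.42 for *Cdh11* in NMPs, 0.0164 for *Pcdh8* in somitic mesoderm and -0.0054 for *Cdh11* over all cells. Among these values, those of *Cdh6* in paraxial mesoderm and *Pcdh18* in Mesenchyme 1 did not pass in female cells. Those of *Pcdh19* in Mesenchyme 1, *Cdh1* in NMPs, *Pcdh8* in somitic mesoderm and *Cdh11* over all cells did not pass in male cells. *Cdh3* in intermediate mesoderm gave no fold change in either sex, because a genotype was at 0. Other classes turned *Cdh11* (-0.27) and *Pcdh19* (0.15) in somitic mesoderm and *Cdh11* in neuroepithelium (-0.10) at resolution 0.8, and *Cdh3* in Mesenchyme 2 (0.35) and *Cdh6* against gut (0.38) with log-normalised clustering. Marker scores turned *Cdh6* against gut (0.24), *Cdh1* in neuroepithelium (-1.16) and in the difference from it (0.60), and *Pcdh19* in neuroepithelium (0.58), which also turned with cadherin genes kept in the clustering (0.31). The causes were not tested.

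With the replicate number as a block, 37 pairs passed within classes, 8 genes over all cells, 5 against gut and 3 against neuroepithelium, and no called result lost its call. The numbers do not pair the samples, since deviations of libraries with the same number had a correlation of 0.0081 over 17168 genes. With 2 libraries of 1 pool a genotype, the spread between embryos was not measured.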

Other observations

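Cells with UMIs of both E-cadherin (*Cdh1*) and N-cadherin (*Cdh2*) were described by class at an equal depth of 7500 UMIs a cell, with no test. In the notochord class they made up 9.38% and 17.3% of 64 and 75 WT cells and 22.7% and 17.9% of 44 and 56 *Grhl3*-null cells. In gut they made up 8.99% and 11.98% of WT and 10.4% and 7.53% of *Grhl3*-null cells, in NMPs 1.48% to 2.51% and in neuroepithelium 0.427% to 0.664%. In paraxial mesoderm, *Pcdh8* was found in 43.3% and 41.5% of WT cells with a *Pcdh19* UMI and in 7.65% and 7.28% of those without one, and in 28.0% and 30.8% against 3.01% and 2.68% of *Grhl3*-null cells. A cell with more RNA of a gene is more often scored for it, and *Pcdh19* and *Pcdh8* share their libraries and class.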
